A study of Mus musculus with 4 samples.

Results

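Potassium channel genes were examined in the cerebellum of mice that had received the insecticide clothianidin or vehicle. Every probe set whose annotated symbol begins with Kcn was taken, apart from 1 inward rectifier gene set aside by the rule and any name ending in os or Rik, which gave 89 genes among 22206 probe sets and 19505 gene symbols. Each of the 89 had a single probe set, so no choice between probe sets was needed. They comprised 26 voltage-gated pore genes, 10 genes of silent voltage-gated subunits, 7 genes of calcium- or sodium-activated and related pores, 14 inward rectifiers, 14 two-pore domain channels, 16 auxiliary subunits and 2 others. The 2 others, Kcnq1ot1 and Kcnrg, carry the prefix but encode no channel.

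All animals were male C57BL/6N mice aged 10 weeks, and all were tested on the rotarod, a rotating rod that measures motor coordination. The clothianidin group (n = 2, replicates 6 and 7) received 50 mg per kg per day by mouth over the 4 days of testing, and the vehicle group (n = 2, replicates 7 and 9) received the carrier alone. Clothianidin is a neonicotinoid, an agonist of insect nicotinic acetylcholine receptors. Brains were removed right after the test, and 1 array was run per sample. The question was which cerebellar transcripts differ after this short exposure. The labels do not say whether samples were single animals, so a p-value reflects how far these samples differ from each other, and that spread may be technical. With 2 arrays against 2, an exact two-sided permutation test of a single value could not go below p = 0.333.

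Potassium channels let potassium leave the cell and so end action potentials, set the resting potential and limit firing. Voltage-gated channels open on depolarisation, calcium- and sodium-activated channels open after activity has loaded the cell, inward rectifiers and two-pore domain channels hold the cell at rest, and auxiliary subunits tune the pores. In the cerebellum the fast-spiking Purkinje cells and the very small, densely packed granule cells rely on distinct sets of these channels, and glia use inward rectifiers to clear potassium from the extracellular space.

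Values are deposited log2 probe set summaries, always given here in the order vehicle replicates 7 and 9, then clothianidin replicates 6 and 7. Levels of different probe sets are not comparable with each other, since they depend on the probes. As a stand-in for background, 1414 probe sets of olfactory and vomeronasal receptor genes had a median of 4.17 and a 95th percentile of 6.01 in their mean over the 4 arrays. By that reference level, 42 of the 89 genes had a mean at or above it and 47 a mean under it. Just under it lay Kcnip2, Kcne1l and Kcnj14 with means between 5.73 and 5.79, and just above it Kcnn3 at 6.02, Kcnk15 at 6.16 and Kcnmb1 at 6.69. At or above the reference level were 17 of 17 measured granule cell markers and 16 of 16 measured Purkinje cell markers. So were 16 of 16 in each list for oligodendrocytes, Bergmann glia and astrocytes, and endothelial and mural cells. As 12114 of 22206 probe sets reached that level, these scores do not single out the tissue. Choroid plexus lies beside the cerebellum, and 1 of its genes, Ttr, was at 13.96 on clothianidin replicate 7. With it, the log2 of the summed linear values of 16 measured choroid plexus markers was 14.10 there, against 10.86 on the other clothianidin array and 10.37 to 10.72 on the vehicle arrays. The median deviation of the 16 markers was -0.041 on that array and -0.036 on the other clothianidin array. Only 5 of the 16 were at or above the reference level, so this median mostly reflects low values. The groups lay apart by at least 1.5-fold for 4 higher and 0 lower markers, beside 4.04% and 3.57% of all probe sets. The part of choroid plexus tissue in these values was not tested.

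No potassium channel gene passed limma at an adjusted p of 0.05, and neither did any other probe set, a background of 0% of 22206. Of the 89 genes, 44 were higher and 45 lower with clothianidin, where 48.1% of all probe sets were higher. The median log2 difference was -0.005 over the 89 genes and -0.01 over all probe sets. Before adjustment, 2 higher genes (Kcnq1ot1 and Kcnrg) and 2 lower ones (Kcnu1 and Kcnk16) had a limma p under 0.05, or 2.25% in each direction beside 2.3% and 1.93% of all probe sets. The groups did not overlap for 16 higher and 17 lower genes, 18% and 19.1%, beside 15.1% and 15.5% of all probe sets. With a difference of at least 1.5-fold as well, there were 3 higher genes, Kcnq1ot1, Kcnrg and Kcna6, and 4 lower, Kcnu1, Kcna5, Kcnk16 and Kcns1. These are 3.37% and 4.49%, beside 4.04% and 3.57% of all probe sets. All these shares lie near the background. These counts are not compared with 1 array left out, since a group of 1 array separates from the other group more readily. Kcna5 and Kcns1 are named because of the count with at least 1.5-fold, after their values were seen.

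**Figure D1:**
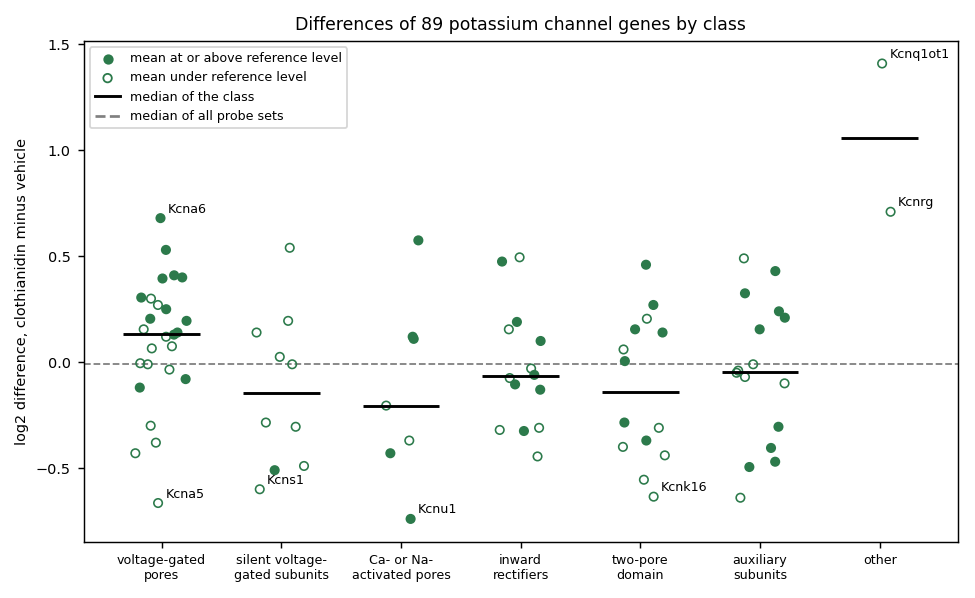
Log2 difference between clothianidin and vehicle for each of the 89 genes, by class, where a point is a gene, filled if its mean was at or above the reference level, and the black bar is the median of the class. Most points lie within 0.5 of 0, Kcnq1ot1 stands alone at 1.41, and the medians run from -0.205 for calcium- or sodium-activated and related pores to 0.135 for voltage-gated pores, apart from the 2 other genes.

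The largest difference belonged to Kcnq1ot1 (probe set TC0700004580.mm.2). This long noncoding RNA is transcribed inside the Kcnq1 gene on chromosome 7, on the opposite strand, from the paternal chromosome, and it silences neighbouring imprinted genes. It was at 4.80 and 4.78 with vehicle, against 6.19 and 6.21 with clothianidin. The groups were far apart, and the arrays of each group agreed to 0.02. The means were 4.79 ± 0.014 and 6.2 ± 0.014 (SD, n = 2 each). This is 2.66-fold, or 1.41 on the log2 scale (standard error 0.265). Its unadjusted limma p of 0.000718 was the 3rd smallest of 22206, and its limma adjusted p was 0.997. Its vehicle values lay between the median and the 95th percentile of the olfactory and vomeronasal probe sets, so they were not shown to be above background and the size of the difference is uncertain. With any single array left out the difference was 1.40 to 1.42. The strand that the probes read is not given in the sources used here, so reads of Kcnq1 and of its antisense partner are told apart only as far as the array design does so.

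The promoter of Kcnq1ot1 is shown because this RNA is the member whose groups lay farthest apart. The 250 bases before its start, from RefSeq (GRCm38.p6, chr7:143296548-143296797, minus strand), are printed 5′ to 3′ with each CCAAT box in capitals. Kcna6 (chr6:126740675-126740924, minus strand), the voltage-gated pore gene with the largest difference, and Kcnk16 (chr14:20269270-20269519, minus strand), a low-level gene with a difference of the opposite sign, are set beside it.
Kcnq1ot1: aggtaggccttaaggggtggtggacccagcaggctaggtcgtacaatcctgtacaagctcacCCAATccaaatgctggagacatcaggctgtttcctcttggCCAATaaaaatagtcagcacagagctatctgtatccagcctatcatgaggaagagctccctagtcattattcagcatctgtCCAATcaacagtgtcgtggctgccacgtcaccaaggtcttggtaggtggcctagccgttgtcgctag
Kcna6: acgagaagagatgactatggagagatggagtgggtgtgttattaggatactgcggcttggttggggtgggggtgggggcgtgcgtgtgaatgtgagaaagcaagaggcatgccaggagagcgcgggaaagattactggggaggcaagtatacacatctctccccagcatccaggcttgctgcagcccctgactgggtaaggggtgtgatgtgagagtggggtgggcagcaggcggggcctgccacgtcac
Kcnk16: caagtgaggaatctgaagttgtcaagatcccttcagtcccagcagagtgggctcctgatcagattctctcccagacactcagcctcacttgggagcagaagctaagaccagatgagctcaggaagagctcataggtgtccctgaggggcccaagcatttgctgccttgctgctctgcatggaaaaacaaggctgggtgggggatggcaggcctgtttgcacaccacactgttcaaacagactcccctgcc
The Kcnq1ot1 window held 3 CCAAT boxes (CCAAT, either strand), a number reached by 2.79% of 32851 RefSeq promoters, while the windows of Kcna6 and Kcnk16 held 0. CpG dinucleotides numbered 5, 8 and 0 in the 3 windows. Of the 89 genes, 68 had promoters in that table, 93 in all. A CCAAT box was present in 29% of these 93 against 33.8% of all promoters, a GC box (GGGCGG, either strand) in 44.1% against 32.7%, and the cyclic AMP response element (TGACGTCA, its own reverse complement) in 0% against 1.55%. The median was 7 CpG in the 93 and 6 in all promoters. A match to these letters is a description of the window and marks no bound site.

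Genes around Kcnq1 showed no difference of that size, though some lay under the reference level. They were looked at after the value of Kcnq1ot1 was known. Kcnq1 itself, a voltage-gated pore of heart and epithelia, was at 3.41 and 3.65 with vehicle, against 3.53 and 3.66 with clothianidin, values under the olfactory median. The maternally expressed cell cycle inhibitor gene Cdkn1c, a known silencing target of Kcnq1ot1, was at 4.81 and 4.95 and at 4.97 and 5.07. Phlda2 and Slc22a18, both imprinted in the same domain, had log2 differences of -0.135 and -0.075. Their values were 4.6 to 4.82 and 5.31 to 5.58. All values of Cdkn1c, Phlda2 and Slc22a18 were under the reference level and so not shown to be above background. Whether these genes changed cannot be told from such values. Over the 5 nearest measured protein-coding genes on each side of Kcnq1, the differences ran from -0.495 to 0.25, with 3 of 10 higher, 7 lower and 0 at an unadjusted limma p under 0.05.

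**Figure D2:**
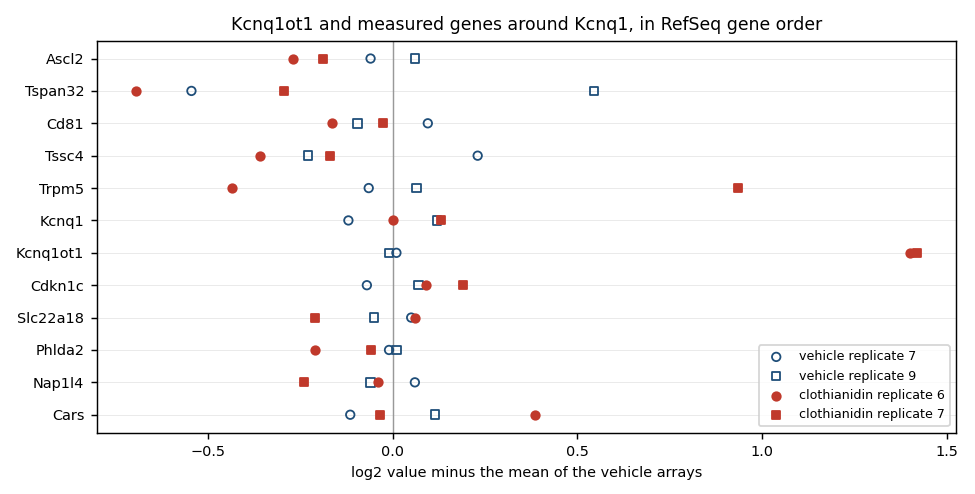
Log2 value minus the mean of the vehicle arrays for Kcnq1ot1, Kcnq1 and the 5 nearest measured protein-coding genes on each side of it, in RefSeq gene order, with 1 point per array. Both clothianidin arrays lie near 1.4 for Kcnq1ot1, while the other genes scatter around 0 with arrays of both groups mixed for most.

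Kcnrg, whose product binds the assembly domain of voltage-gated subunits and lowers channel number, was at 4.64 and 4.63 with vehicle, against 5.26 and 5.43 with clothianidin. The groups did not overlap, but all 4 values were under the reference level. Kcnu1, the sperm channel Slo3 and a relative of the calcium-activated pores, was at 7.38 and 7.33 and at 6.61 and 6.62, again with arrays of a group close together, a log2 difference of -0.74 (standard error 0.265). The two-pore gene Kcnk16, known mainly from pancreatic islets, was at 3.74 and 3.50 and at 2.91 and 3.06, all under the olfactory median. The limma adjusted p was 0.997 for each of the 3. With 1 array left out the difference of Kcnrg was 0.625 to 0.795, that of Kcnu1 -0.765 to -0.715 and that of Kcnk16 -0.755 to -0.515.

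Of the voltage-gated pores, 17 of 26 were higher in the clothianidin group, and the median difference of the class was 0.135 on the log2 scale. Groups lay apart for 6 higher and 2 lower genes, 23.1% and 7.69%, beside 15.1% and 15.5% of all probe sets, and 0 had an unadjusted limma p under 0.05. Among the 13 of them at or above the reference level, a description that passes over low genes, 11 were higher, with a median of 0.25. Of all probe sets at or above that level, 57.4% were higher, with a median of 0.06. This rested on 1 array. The value on clothianidin replicate 6 was the highest of the 4 for 10 of these 13 genes, beside 34.3% of probe sets at or above the reference level, and for 29 of all 89 genes beside 26.2% of all probe sets. Without clothianidin replicate 6 the median over the 13 genes was 0.035, with 7 of 13 higher, and without clothianidin replicate 7 it was 0.455, with 13 of 13 higher.

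Among the Shaker-type genes of the Kcna family, 4 of 8 were higher and 4 lower. Kcna6, an axonal subunit, was at 9.59 and 9.00 with vehicle, against 10.26 and 9.69 with clothianidin, a log2 difference of 0.68 (standard error 0.335, limma adjusted p = 0.997). The groups did not overlap, though the higher vehicle array and the lower clothianidin array lay close, and the difference was 0.385 to 0.975 with 1 array left out. Kcna1 and Kcna2 form the channels at basket cell terminals around the Purkinje axon, and loss of Kcna1 function causes episodic ataxia. Kcna1 was at 14.36 and 14.01 and at 14.48 and 13.65. Kcna2 was at 12.43 and 12.05 and at 12.65 and 12.11. For both genes the groups overlapped, clothianidin replicate 6 was the highest array, and their log2 differences of -0.12 and 0.14 changed sign when 1 array was left out. Kcna3, best known from T cells, was at 6.67 and 6.59 and at 7.49 and 6.83, so the groups lay apart, and the size of the difference, 0.53, was 0.20 without clothianidin replicate 6. Kcna5 went the other way, at 6.16 and 5.71 and at 5.01 and 5.53, with a mean under the reference level. In the RefSeq gene order Kcna5, Kcna1 and Kcna6 follow each other on chromosome 6, and their log2 differences were -0.665, -0.12 and 0.68. Of 10 pairs of Kcn genes that are direct neighbours, 5 had differences of the same sign.

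The Shaw-type genes of the Kcnc family encode the fast channels that allow narrow spikes. Kcnc1, strong in granule cells, was at 15.38 and 14.98 with vehicle, against 15.83 and 15.14 with clothianidin. Kcnc4 was at 8.95 and 8.60 and at 9.38 and 8.96, with groups apart by 0.01. Kcnc2 was at 6.30 and 4.95 and at 4.80 and 5.69, a spread within groups larger than the log2 difference of -0.38. Its mean was under the reference level. In Kcnc1 and Kcnc4, as in Kcna6, clothianidin replicate 6 was the highest array and vehicle replicate 9 the lowest.

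Kcnd genes encode the transient A-type channels, which delay firing in granule cells. Kcnd2 was at 14.29 and 14.08 and at 14.64 and 14.23, and Kcnd3 at 10.40 and 10.89 and at 11.67 and 10.44. Both had their highest value on clothianidin replicate 6 and overlapped otherwise. Without that array the log2 difference of Kcnd3 went from 0.41 to -0.205. Their cytoplasmic partners, the KChIP genes, had 2 of 4 higher. Kcnip4 was at 15.96 and 15.88 and at 16.07 and 16.08, a small separation of 0.155. Kcnip3, which encodes the calcium sensor also called DREAM, was at 15.86 and 15.57 and at 15.25 and 15.19, a log2 difference of -0.495 (standard error 0.275). The groups of Kcnip3 did not overlap and the difference was -0.64 to -0.35 with 1 array left out. Kcnip1 was at 12.99 and 12.34 and at 12.86 and 12.95, where only vehicle replicate 9 was low. Kcnip2 was at 6.62 on vehicle replicate 7 and at 5.31 to 5.52 on the other 3 arrays.

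The M-current gene Kcnq3, whose slow channel restrains repetitive firing, was at 8.15 and 7.80 with vehicle, against 8.74 and 8.01 with clothianidin. Kcnq5, from the same family, was at 5.0 and 4.98 and at 5.31 and 4.91, under the reference level. The ether-a-go-go family gene Kcnh7 was at 7.44 and 7.67 and at 7.59 and 7.91. None of the 3 separated the groups, and their log2 differences were 0.40, 0.12 and 0.195. The 8 Kcnh genes as a family split evenly, 4 higher and 4 lower, with a median of 0.02.

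Silent subunits form no channel alone and change the voltage-gated channels they join. Of 10 such genes, groups lay apart for 2 higher and 4 lower, 20% and 40%, beside 15.1% and 15.5% of all probe sets. In all, 4 were higher and 6 lower, with a median of -0.148 (-0.055 without vehicle replicate 9), and 1 was at or above the reference level. That gene, Kcng4, was at 10.13 and 9.57 with vehicle, against 9.51 and 9.17 with clothianidin, apart by 0.06. Kcns1 was at 4.81 and 5.67 and at 4.71 and 4.57, a difference set by vehicle replicate 9, without which it was -0.17.

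**Figure D3:**
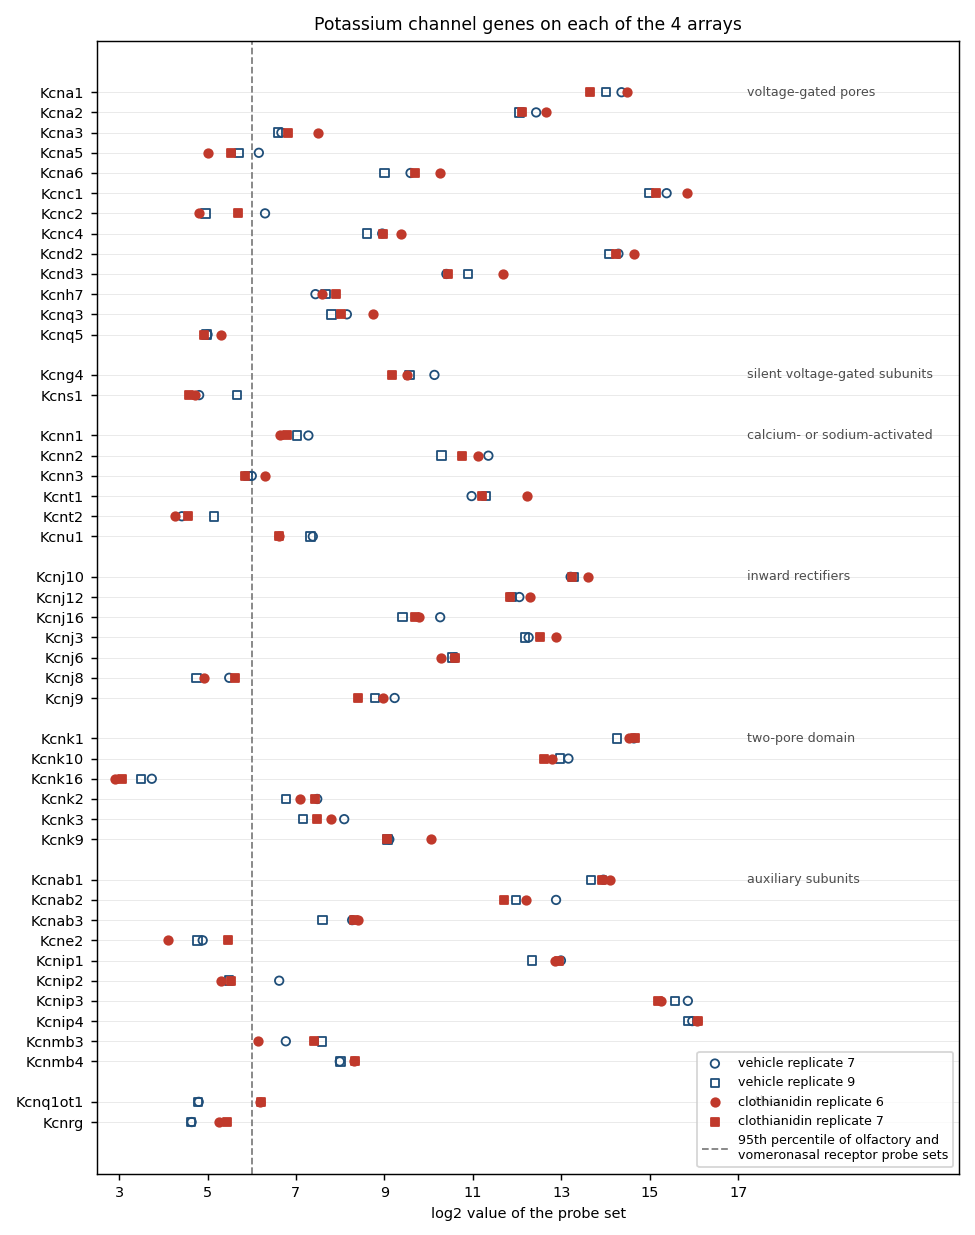
Log2 value on each of the 4 arrays for the 46 named genes, arranged by class, with open marks for vehicle, filled marks for clothianidin and a dashed line at the reference level. In most rows the marks of both groups are mixed, the filled circle of clothianidin replicate 6 is often farthest right among voltage-gated pores, and Kcnq1ot1, Kcnrg, Kcnu1 and Kcnk16 show pairs of marks that lie apart.

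Channels opened by calcium or sodium, with their relative Kcnu1, had 3 of 7 genes higher and a median of -0.205. Groups lay apart for 0 higher and 3 lower of the 7, 0% and 42.9%, beside 15.1% and 15.5% of all probe sets. Without clothianidin replicate 6, 1 of 7 was higher. Over the 5 genes at or above the reference level the sign turned, with 3 higher and a median of 0.11, and it turned back to -0.42 without vehicle replicate 9 and to -0.11 without clothianidin replicate 6. The small-conductance channels give the pause after a burst of spikes. Kcnn2, the form prominent in Purkinje cells, was at 11.35 and 10.29 with vehicle, against 11.11 and 10.75 with clothianidin, and its vehicle arrays were farther apart than the groups. Kcnn1 was at 7.28 and 7.02 and at 6.64 and 6.80, with groups apart and a log2 difference of -0.43 (standard error 0.276). Kcnn3 was at 6.00 and 5.92 and at 6.31 and 5.85, near the reference level and overlapping. The sodium-activated channel gene Kcnt1 was at 10.97 and 11.30 and at 12.22 and 11.20. Its log2 difference of 0.575 was 0.065 without clothianidin replicate 6. Kcnt2 was at 4.42 and 5.14 and at 4.27 and 4.55, under the reference level. Among the beta subunits of the large-conductance channel, the neuronal one, Kcnmb4, was at 7.99 and 8.01 and at 8.32 and 8.33. Arrays of a group thus agreed to 0.02 for Kcnmb4, and the log2 difference was 0.325 with all arrays and 0.315 to 0.335 with 1 left out (limma adjusted p = 0.997). Kcnmb3 was at 6.77 and 7.59 and at 6.15 and 7.40, with arrays of both groups mixed.

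Among auxiliary subunits in all, 6 of 16 were higher and 10 lower, with a median of -0.045. Groups did not overlap for 4 higher and 2 lower genes, 25% and 12.5%, beside 15.1% and 15.5% of all probe sets. The direction of the median was not stable. The median was 0.155, with 5 of 9 higher, at or above the reference level and 0.041, with 10 of 16 higher, after a further quantile normalization. It was 0.02 without vehicle replicate 9, 0.052 without clothianidin replicate 6 and 0.122 without clothianidin replicate 7. The cytoplasmic beta subunits of Kcna channels differed in sign. Kcnab1 was at 13.95 and 13.67 with vehicle, against 14.11 and 13.93 with clothianidin. Kcnab2 was at 12.88 and 11.98 and at 12.21 and 11.71, and Kcnab3 at 8.27 and 7.60 and at 8.41 and 8.32. The groups overlapped for Kcnab1 and Kcnab2 and lay apart by 0.05 for Kcnab3. Without vehicle replicate 7, the highest array of Kcnab2, its log2 difference went from -0.47 to -0.02.

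Inward rectifiers had 5 of 14 genes higher, 9 lower and a median of -0.068, which was 0.082, with 8 of 14 higher, without vehicle replicate 7 and -0.122 when vehicle replicate 9 was left out instead. Groups did not overlap for 1 higher and 1 lower gene, 7.14% each way, beside 15.1% and 15.5% of all probe sets. The channels opened by G proteins carry the slow inhibition that follows GABA-B and other receptor activation. Of their subunits, Kcnj3 was at 12.26 and 12.18 with vehicle, against 12.88 and 12.51 with clothianidin, a separation of the groups with a log2 difference of 0.475 and a standard error of 0.281 (limma adjusted p = 0.997). Kcnj6 was at 10.59 and 10.54 and at 10.27 and 10.60. Kcnj9 was at 9.23 and 8.79 and at 8.97 and 8.40. So the partners of Kcnj3 overlapped between groups, with log2 differences of -0.13 and -0.325. Kcnj10, the main glial channel for potassium uptake, was at 13.21 and 13.27 and at 13.61 and 13.25. Its glial partner Kcnj16 was at 10.26 and 9.41 and at 9.78 and 9.68. Neither gene separated the groups, and astroglial markers as a list had 8 of 16 higher, with a median of 0.003. The strong rectifier gene Kcnj12 was at 12.05 and 11.88 and at 12.28 and 11.85. Kcnj8, a gene of pericytes and smooth muscle, was at 5.49 and 4.75 and at 4.92 and 5.63, under the reference level.

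Two-pore domain channels carry the leak current at rest, and 7 of 14 were higher and 7 lower, with a median of -0.14. Groups lay apart for 1 higher and 5 lower genes, 7.14% and 35.7%, beside 15.1% and 15.5% of all probe sets. At or above the reference level these were 1 and 2 of 7, beside 2442 higher and 1258 lower of 12114 probe sets there. The class median was 0.09, with 9 of 14 higher, without vehicle replicate 7 and -0.408, with 3 of 14 higher, without vehicle replicate 9. Over the 7 genes at or above the reference level it was 0.14, with 5 higher, and -0.215 without vehicle replicate 9 and -0.04 without clothianidin replicate 6. Kcnk1 was at 14.64 and 14.26 with vehicle, against 14.54 and 14.67 with clothianidin. Kcnk9, the acid-sensitive leak channel of granule cells, was at 9.11 and 9.07 and at 10.05 and 9.05, so 1 clothianidin array was high and the other lay at the vehicle level. Its relative Kcnk3 was at 8.09 and 7.16 and at 7.79 and 7.47. The mechanically gated channel gene Kcnk2 was at 7.48 and 6.77 and at 7.09 and 7.44. Among these named genes, only Kcnk10, a relative of Kcnk2, had groups apart, at 13.16 and 12.97 and at 12.79 and 12.60. The log2 difference of Kcnk10 was -0.37 (standard error 0.273), and -0.465 to -0.275 with 1 array left out.

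Kcne2 encodes a small beta subunit known from heart, stomach and the choroid plexus. It was at 4.89 and 4.77 with vehicle, against 4.11 and 5.47 with clothianidin, so its highest value was on clothianidin replicate 7, still under the reference level. Of the choroid plexus markers, 7 of 16 were higher and 9 lower. Ttr was at 5.70 and 5.67 and at 6.38 and 13.96, and Folr1 at 4.62 and 4.92 and at 5.24 and 6.05. Kl was at 4.99 and 3.79 and at 4.62 and 4.96, and Clic6 at 9.17 and 8.60 and at 8.85 and 8.72. Ace, the listed marker with the smallest p, was at 7.02 and 7.21 and at 7.92 and 8.14. Clothianidin replicate 7 was thus the highest array for Ttr, Folr1 and Ace and not for Kl or Clic6. The part of choroid plexus tissue in the value of Kcne2 was not tested.

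Markers of granule cells and interneurons were high on the same array as the voltage-gated class, clothianidin replicate 6. The median deviation of the 13 voltage-gated pore genes from each gene's own mean was 0.355 on clothianidin replicate 6, against -0.095 on the other clothianidin array and -0.023 and -0.23 with vehicle. Granule cell markers, of which 12 of 17 measured were higher, deviated by -0.033 and -0.147, 0.293 and -0.202. The log2 of their summed values was 19.80 and 19.55 with vehicle and 20.07 and 19.63 with clothianidin. Interneuron markers, of which 8 of 13 were higher, deviated by 0 and -0.13, 0.312 and -0.2, with summed levels of 15.70 and 15.73 and of 16.23 and 15.75. Both lists thus had the same high array as these voltage-gated pore genes. All probe sets at or above the reference level had a median deviation of 0.067 on that array. Of the other channel classes at that level, inward rectifiers were also highest there (0.123). Calcium- or sodium-activated and related pores (0.345) and two-pore genes (0.252) were highest on vehicle replicate 7. Auxiliary subunits (0.137) were highest on clothianidin replicate 7. Among the defining granule cell markers, Zic1 was at 17.59 and 17.16 and at 18.35 and 17.53, while Gabra6 was at 17.41 and 17.09 and at 17.05 and 17.40. Purkinje cell markers, of which 11 of 16 were higher, deviated by -0.091 and -0.132, 0.082 and 0.062, and their summed levels were 20.27 and 20.06 and 20.32 and 20.42. Oligodendrocyte markers, of which 3 of 16 were higher, deviated by 0.18 and -0.048, -0.024 and -0.197, with summed levels of 17.95 and 17.71 and of 17.88 and 17.53. On clothianidin replicate 6 the median deviation was -0.017 for astroglial, -0.096 for endothelial and mural, -0.045 for microglial and -0.189 for brainstem and nuclear markers. Of these lists 8 of 16, 5 of 16, 3 of 13 and 4 of 14 genes were higher. In tissue RNA, fewer cells of a type and less RNA per cell cannot be told apart, and the part of cell composition in the channel values was not tested.

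**Figure D4:**
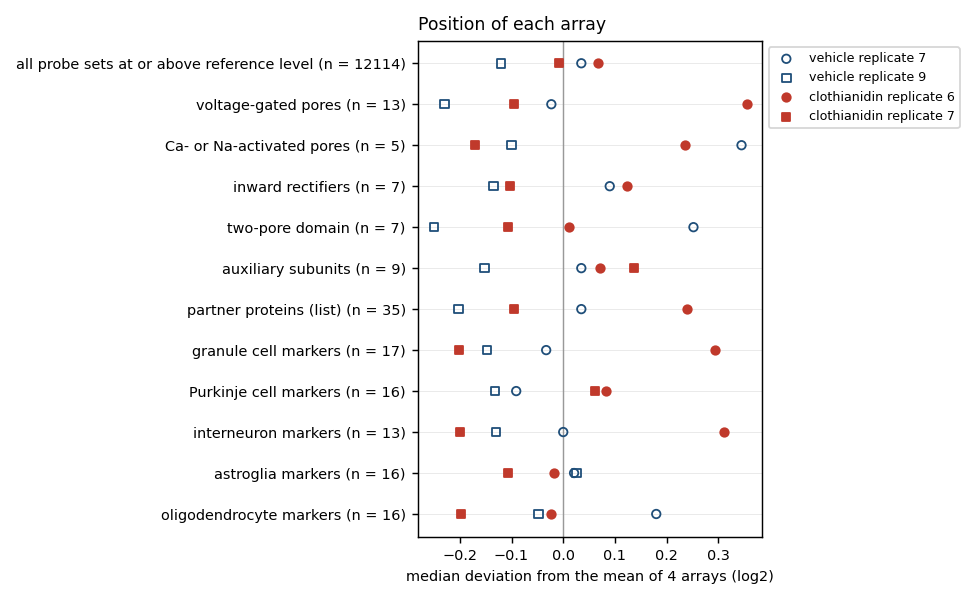
Median deviation of each array from the mean of the 4 arrays, on the log2 scale, for channel classes (genes at or above the reference level) and for lists of partner proteins and cell type markers. Clothianidin replicate 6 lies near 0.3 for voltage-gated pores, granule cell markers and interneuron markers, while clothianidin replicate 7 lies under 0 for each of them.

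Proteins that place or gate these channels were taken from a list of 37 genes, of which 35 were measured. With clothianidin 20 were higher, 14 lower and 1 equal, and the median was 0.15. Of the 35, 32 were at or above the reference level, where 57.4% of probe sets were higher, against 48.1% of all. An unadjusted limma p under 0.05 was found for 3 higher and 0 lower genes, where all probe sets had 2.3% and 1.93%, and 0 passed the adjusted threshold. Cntnap2 and Cntn2, which gather Kcna channels beside the node of Ranvier, had log2 differences of 0.805 and 0.73. Cntnap2 was at 9.05 and 8.81 with vehicle, against 10.06 and 9.41 with clothianidin. Cntn2 was at 11.73 and 11.92 and at 12.80 and 12.31. The groups lay apart in both, with the highest value on clothianidin replicate 6, as it was for 21 of the 35 genes, beside 26.2% of all probe sets and 34.3% of those at or above the reference level. Of 17 genes for other channels, pumps and transporters that set the resting potential, 13 were measured and 11 were higher. That stands beside 48.1% of all probe sets and 57.4% of those at or above the reference level, where 11 of the 13 lay. The chloride exporter gene Slc12a5 was at 12.50 and 12.28 and at 13.29 and 13.29, and the sodium leak channel gene Nalcn at 12.05 and 11.90 and at 10.58 and 11.50. They were the 2 of these 13 at an unadjusted limma p under 0.05, in opposite directions, beside 2.3% higher and 1.93% lower of all probe sets. Both had a limma adjusted p of 0.997.

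The median range between the arrays of a group was 0.31 with vehicle and 0.25 with clothianidin over the 89 genes. The median size of the difference between groups was 0.285. Over all probe sets the ranges were 0.32 and 0.31 and the difference 0.215. Range and difference are unlike measures, since a mean of 2 arrays varies less than 1 array. The difference exceeded the ranges of both groups for 24 of the 89 genes, or 27%, beside 19.8% of all probe sets. Vehicle replicate 7 was above vehicle replicate 9 for 63 of the 89 genes, or 70.8%, beside 54.4% of all probe sets. At or above the reference level this held for 81% of the channel genes, beside 64.2% of all probe sets at that level. Of the 46 named genes, the difference of 37 changed by over 1.5 times with some array left out, and that of 19 turned sign. The 9 that kept within that bound were Kcnq1ot1, Kcnrg, Kcnu1, Kcnk16, Kcnmb4, Kcnip3, Kcnip4, Kcnn1 and Kcnk10.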

How the data were processed

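Total RNA of 4 cerebellum samples was hybridised to Affymetrix arrays, 1 per sample. RMA was run by the authors, per the submitters' processing notes, and the deposited values are its log2 summaries per probe set, to 2 decimals. The log base was not stated and was taken as 2. Scanner files were not used here. Signal over background is therefore not known, and the number of arrays limits the precision. Columns were matched by accession and grouped by title.

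Genes were named from the platform annotation. Of 22206 probe sets, 19572 had 1 symbol, 0 had several and 2634 were not named. RefSeq GRCm38.p6 identifiers changed 0 symbols.

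All probe sets were fitted with limma 3.58.1 (R 4.3.3, lmFit and eBayes, no covariate) with Benjamini-Hochberg adjustment at 0.05. The procedure was checked on simulated data. Over all probe sets the standard error of a difference had a median of 0.298.

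The text names 38 genes known from cerebellum or glia (34 measured, the others not analysed here), the 8 largest differences each way at or above the reference level, and genes at an unadjusted p under 0.05. Genes of the other lists were named only where they were among the first 4 listed markers or the 2 smallest p of a list, and not all of those are given. The members and lists were chosen with earlier results of these data known. The planned search of member proteins was not run because no protein sequences were used here.

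Alternatives were centring, quantile normalization, level filters, probe set rules, other priors, no moderation, other folds and reference levels, and leaving out each array.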

Additional observations from a re-analysis of the deposited data

How the results depend on the processing

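No paired analysis was possible because the groups share only the replicate number 7. Of 539 values of named genes under the alternatives, 508 kept their sign and side of the threshold and 31 turned sign.

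The count of probe sets passing an adjusted p of 0.05 was 8 with a linear model without moderation, none of them a gene named here, and 0 to 1 with 1 array left out. With the filter on level at the median, 40 potassium channel genes were left, with 25 higher, a median of 0.14, 0 higher and 1 lower at an unadjusted limma p under 0.05, and 1 higher and 1 lower apart by at least 1.5-fold. Lower genes at that unadjusted p numbered 1 after median centring and 1 with the filter at the 25th percentile. With a fold lower than 1.5 the genes apart were 9 higher and 11 lower, and at a fold of 2 they were 1 and 0. No share of all probe sets is given at these folds, with these filters or after centring. Whether these counts of channel genes exceed the background therefore cannot be told. By the median of the olfactory and vomeronasal probe sets 72 genes were at or above the level.

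With 1 array left out, the median of the 89 genes ran from -0.04 to 0.095, the latter without vehicle replicate 7. The unadjusted count ran from 1 to 5 higher and from 0 to 5 lower, and the count apart by at least 1.5-fold from 3 to 12 higher and from 5 to 13 lower. Both upper ends for higher genes came without clothianidin replicate 7, and both for lower genes without vehicle replicate 9. A group of 1 array separates from the other group more readily. No share of all probe sets with the same array left out is given beside these counts. Whether the channel genes exceed the background there cannot be told from them.

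After a further quantile normalization the log2 difference was 0.07 for Kcne2, -0.001 for Kcnj12 and -0.015 for Kcnk3. With 1 array left out, genes whose sign turned ran from -0.535 to 0.295 for Kcna1, -0.13 to 0.41 for Kcna2, -0.04 to 0.65 for Kcnc1, -1.055 to 0.295 for Kcnc2 and -0.205 to 1.025 for Kcnd3. The range was -0.72 to 0.64 for Kcne2, -0.085 to 0.565 for Kcnip1, -0.115 to 0.315 for Kcnj12, -0.53 to 0.32 for Kcnj16, -0.295 to 0.035 for Kcnj6 and -0.215 to 0.525 for Kcnj8. It was -0.035 to 0.345 for Kcnk1, -0.215 to 0.495 for Kcnk2, -0.46 to 0.47 for Kcnk3, -0.04 to 0.96 for Kcnk9 and -1.03 to 0.22 for Kcnmb3. It was -0.42 to 0.64 for Kcnn2, -0.11 to 0.35 for Kcnn3 and -0.08 to 0.32 for Kcnq5. These fits hold 1 array in 1 group, taken to vary like the other group, and the cause of each turn was not tested.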
